A study of Homo sapiens with 6 samples.

Results

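The ESCRT genes described here are the 35 genes that encode the membrane-scission machinery of the endosomal sorting complexes required for transport, among 58735 genes in the deposited table. They were taken by gene name: 3 genes of ESCRT-0, 9 of ESCRT-I, 3 of ESCRT-II, 12 of ESCRT-III, 3 of the VPS4 ATPase, 3 recruiters and 2 deubiquitinases. All 35 names were found. Messenger RNA was sequenced in AZ-521 cells with the genotype given as WT that had received 10 µM platycodon D (PD), a plant saponin, or DMSO, the solvent control. Exposure lasted 48 h in both groups, with 3 samples per group, and the study asked how PD acts against gastric cancer cells. Whether the replicates came from separate cultures is not stated, and p-values therefore speak to differences among these 6 samples alone, possibly technical ones.

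The ESCRT machinery bends and cuts membranes from the inside of the neck, with the opposite geometry to endocytosis. On endosomes, ESCRT-0 gathers ubiquitinated receptors, ESCRT-I and ESCRT-II carry them into budding vesicles, and ESCRT-III polymerises into filaments that the ATPase VPS4 remodels until the neck is cut. The same ESCRT-III and VPS4 proteins act at holes in the plasma membrane, on damaged lysosomes, at the reforming nuclear envelope and in the last step of cell division. At wounds of the plasma membrane PDCD6 (ALG-2), which senses calcium, and PDCD6IP (ALIX) help to recruit them.

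Values are FPKM, fragments normalised to gene length and library size, as the authors deposited them, and changes are log2 fold changes of FPKM + 1, PD over DMSO. "Rose" and "fell" mean an adjusted p under 0.05 in limma over 13579 genes with at least 1 FPKM in at least 3 samples. Reads over genes, recovered from the FPKM values, numbered between 14915538 and 16341687 per sample. The second principal component, with 18.9% of the variance, set PD replicate 3 and DMSO replicate 1 apart from the other samples. Calls of single genes that rest on them are given with and without both. The labels call the line a gastric cancer cell and cell banks list it as duodenal. Of 5 epithelial and 8 gastric marker genes 0 had a mean of at least 1 FPKM, with KRT18, KRT19, TFF1, TFF2 and GKN1 at 0 in every sample. The 5 epithelial genes summed to between 0.345 and 0.471 FPKM in PD samples and between 0.425 and 0.63 FPKM in DMSO samples. Of 7 intestinal markers 1 reached that mean, the transcription factor CDX2, while the mesenchymal and neural markers VIM, CDH2, MEOX2 and SOX2 all did. Those 4 summed to between 112 and 131 FPKM in PD samples and between 168 and 191 FPKM in DMSO samples, 3 of them fell, and their part in the ESCRT results was not tested. In RNA pooled from a culture, a change within each cell and a change in the mix of cell states cannot be told apart.

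In ESCRT-III 4 of 11 tested genes rose and in ESCRT-I 2 of 9. It was 1 of 3 in the VPS4 group and 1 of 3 among recruiters. In ESCRT-0, ESCRT-II and the deubiquitinases it was 0 of 3, 0 of 3 and 0 of 2. Among all genes tested 14.3% rose. The ESCRT-III count includes CHMP4A, which reached the filter through its PD samples alone and had to differ. CHMP1B, an ESCRT-III subunit that coats membrane tubules and recruits VPS4, stood at 5.63 times its DMSO level. Transcripts of VPS4B, CHMP2B and VPS37B stood at 1.68, 1.88 and 1.72 times their DMSO levels. All of these are ratios of mean FPKM, without the added 1 of the tested changes. CHMP2B did not pass in 5 of 16 alternative fits, while VPS4B and VPS37B passed in each that included them. VPS37C, CHMP1A and PDCD6IP rose by smaller amounts, and CHMP4A passed the test at a level near the filter.

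Promoter sequences of 5 of these genes are printed to show where short motifs lie. They run from 250 bases before to 50 bases after the start that RefSeq gives, on GRCh38.p14, and 27 of the 35 members were matched by symbol. Capitals mark matches to any of 4 motifs on either strand: CACGTG (the E-box), TCACGTG (a longer E-box that contains the first and is known from promoters of lysosomal genes), TGACNNNGC (the core of the antioxidant response element) and TGACGTCA (the cAMP response element). The last of these was added after the sequences had been seen. The CHMP1A promoter, with no match, stands for the paralog of CHMP1B. VPS4B, which also rose, held none of the motifs and is not printed. Each of the 4 motifs was found in 3 of the 27 matched members, and their shares among other promoters are given below.
CHMP1B, chr18:11851163-11851462, plus strand: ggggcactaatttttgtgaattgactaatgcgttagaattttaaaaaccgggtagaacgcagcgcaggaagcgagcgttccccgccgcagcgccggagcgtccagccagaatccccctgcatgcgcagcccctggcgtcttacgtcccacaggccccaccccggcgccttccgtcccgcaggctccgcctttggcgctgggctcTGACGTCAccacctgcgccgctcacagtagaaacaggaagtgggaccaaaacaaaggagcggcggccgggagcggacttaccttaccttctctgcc
CHMP1A, chr16:89657659-89657958, minus strand: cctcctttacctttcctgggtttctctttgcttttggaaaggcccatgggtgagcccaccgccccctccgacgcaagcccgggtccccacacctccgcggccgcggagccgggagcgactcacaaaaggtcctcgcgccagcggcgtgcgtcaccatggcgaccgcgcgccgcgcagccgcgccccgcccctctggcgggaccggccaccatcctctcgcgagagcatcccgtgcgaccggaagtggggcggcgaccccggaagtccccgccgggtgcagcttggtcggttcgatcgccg
VPS37B, chr12:122896075-122896374, minus strand: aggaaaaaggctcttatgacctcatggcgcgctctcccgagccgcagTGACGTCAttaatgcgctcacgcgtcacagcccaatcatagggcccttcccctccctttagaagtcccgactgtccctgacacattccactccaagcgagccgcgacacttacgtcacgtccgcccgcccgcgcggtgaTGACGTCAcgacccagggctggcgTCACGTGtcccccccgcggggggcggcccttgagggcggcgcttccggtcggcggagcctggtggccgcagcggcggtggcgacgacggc
PDCD6IP, chr3:33798380-33798679, plus strand: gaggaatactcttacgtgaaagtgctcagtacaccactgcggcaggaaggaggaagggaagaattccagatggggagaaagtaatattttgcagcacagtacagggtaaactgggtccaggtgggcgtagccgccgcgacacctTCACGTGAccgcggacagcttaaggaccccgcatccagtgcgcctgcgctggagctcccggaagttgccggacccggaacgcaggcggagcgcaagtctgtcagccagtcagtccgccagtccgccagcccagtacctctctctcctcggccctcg
CHMP4A, chr14:24213439-24213738, minus strand: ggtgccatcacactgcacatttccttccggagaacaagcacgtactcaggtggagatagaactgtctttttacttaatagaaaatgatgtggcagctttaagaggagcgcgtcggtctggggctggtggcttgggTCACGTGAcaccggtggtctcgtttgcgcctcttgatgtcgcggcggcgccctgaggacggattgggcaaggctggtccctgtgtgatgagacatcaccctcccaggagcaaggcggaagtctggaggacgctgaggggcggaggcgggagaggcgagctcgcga

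The CHMP1B window held TGACGTCA with its first base at position -46 from the start. VPS37B held that motif at positions -203 and -64, and TCACGTG at position -40. TCACGTG, followed by a further A in both, lay at position -106 from the start of PDCD6IP and at position -115 from that of CHMP4A. The E-box CACGTG was present in 3 of the 27 matched members, which were these 3 genes. It was present in 7.43% of all 27305 promoters and in 10.7% of the 8873 promoters of tested genes. The E-box share among members was thus close to that among tested genes. Of the members that rose, 7 had a matched promoter, and 3 of these 7 held the E-box. CHMP4A, among those 3, entered the test through its PD samples alone. PDCD6IP and CHMP4A passed in 7 of 16 and 3 of 15 alternative fits. The share among promoters of all genes that rose was not counted. TCACGTG was present in the same 3 members, against 3.82% of all promoters and 6.27% of those of tested genes. TGACGTCA was found in CHMP1B, VPS37B and UBAP1, against 1.98% of all promoters and 3.46% of those of tested genes. TGACNNNGC was found in CHMP2B, CHMP5 and VTA1, against 13.6% of all promoters and 15.4% of those of tested genes. A match is a description of letters and was not tested for binding.

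**Figure D1:**
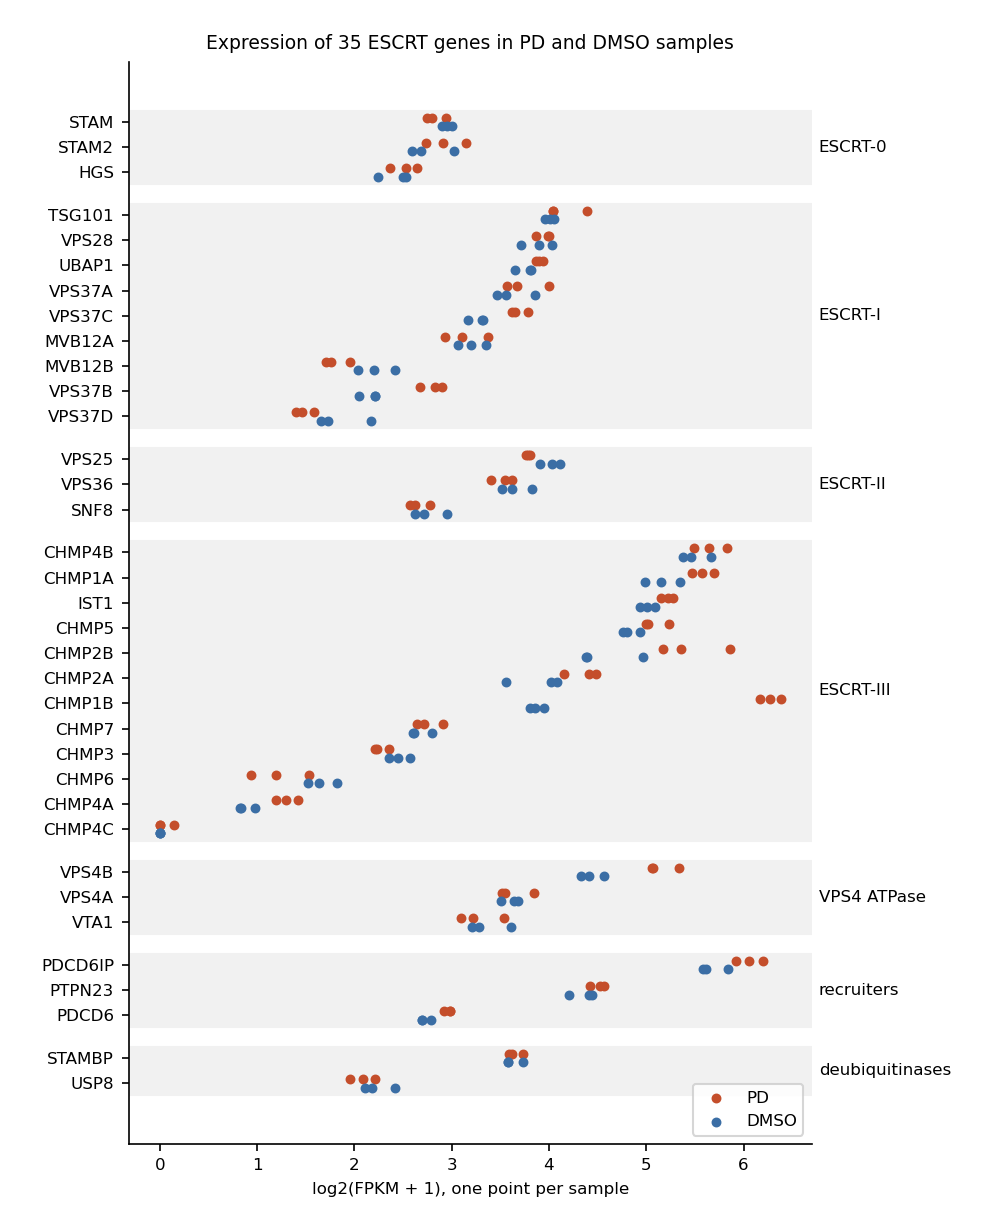
Level of each of the 35 ESCRT genes, as log2(FPKM + 1) on the horizontal axis, in the 3 PD samples (rust red) and the 3 DMSO samples (blue), grouped by complex. CHMP1B has the widest gap between the groups, with PD samples from 71.1 to 82.4 FPKM and DMSO samples from 12.9 to 14.4 FPKM.

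Of the 35 members 34 passed the filter on low values. Of these, 8 rose and 0 fell, and 26 did not pass the test. Across all genes tested 14.3% rose and 12.7% fell, against 23.5% and 0% of the members. At an unadjusted p under 0.05, 12 members were higher and 4 lower, beside 2792 and 2667 of the 13579 genes tested. With limma's voom on the recovered reads 9 members rose and 1, MVB12B, fell, beside 2174 and 2098 of all genes. A single member, CHMP1B, changed at least 2-fold, the size named in the labels, while 2.84% of all genes tested rose and 0.979% fell by that much. CHMP4A, among the 8, reached the filter through its PD samples alone. The median log2 fold change of the members was 0.13, against 0.00 over all genes. With samples scaled to equal totals these medians were 0.015 and -0.10, and the members' median was 0.075 with array weights, 0.083 without DMSO replicate 2 and 0.077 without both libraries that stand apart. PD and DMSO samples did not overlap in 13 members that were higher in PD and in 4 that were lower, beside 22.5% and 21.9% of all genes.

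The number that rose depended on the libraries. It was 4 without PD replicate 1, 4 without PD replicate 2, 5 without PD replicate 3, 6 without DMSO replicate 1, 3 without DMSO replicate 2 and 5 without DMSO replicate 3. Without both PD replicate 3 and DMSO replicate 1 it was 8, of which 6 were among the 8 named above, and 2 members fell. CHMP1B, VPS4B and VPS37B passed in every fit that included them, 16, 16 and 15 alternatives.

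**Figure D2:**
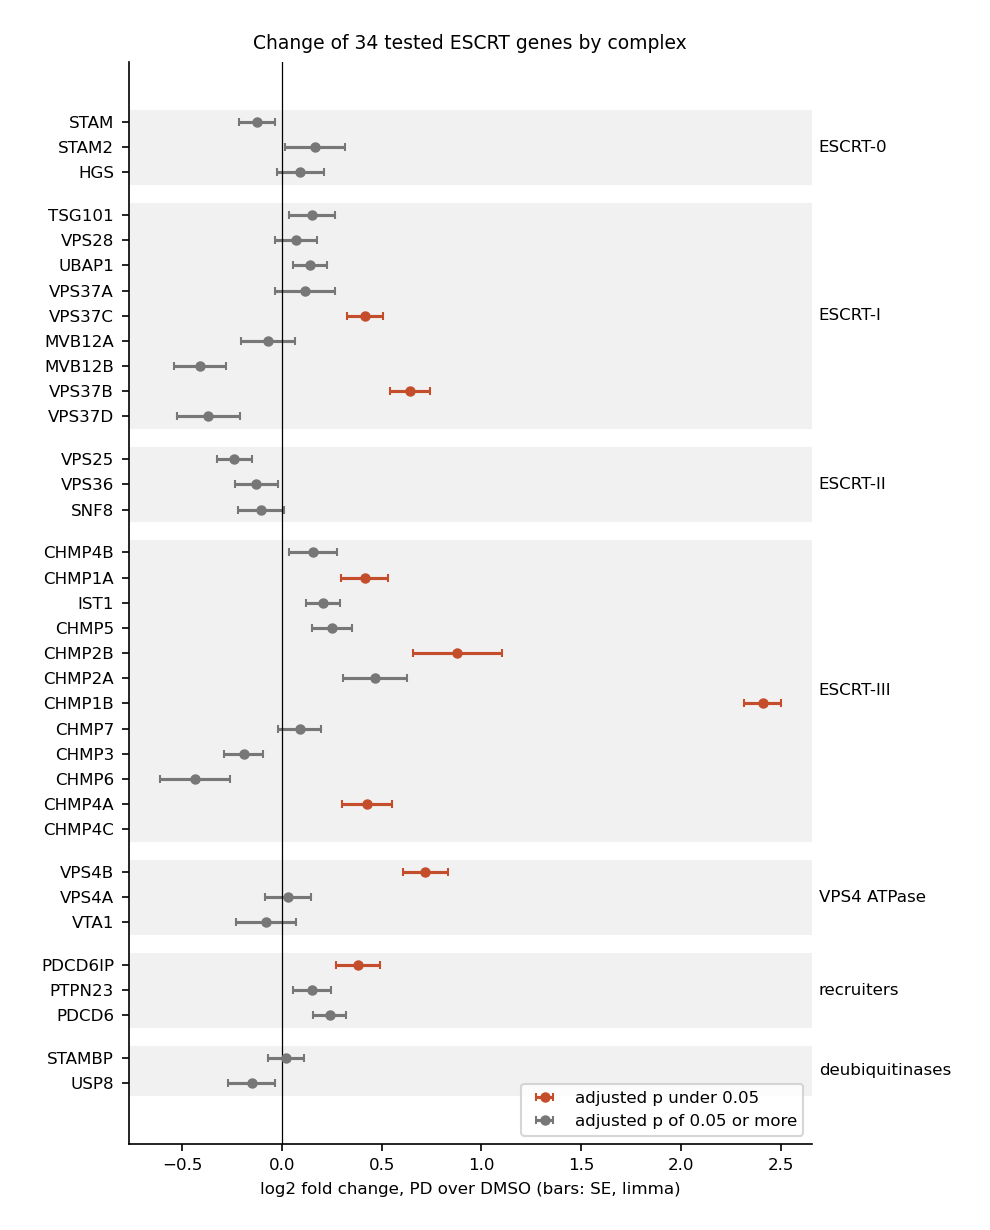
Log2 fold change of the 34 tested ESCRT genes, PD over DMSO, with its standard error as bars, grouped by complex. The 8 genes past an adjusted p of 0.05 (rust red) all lie to the right of 0, between 0.38 for PDCD6IP and 2.41 for CHMP1B.

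ESCRT-III genes, which encode the filament itself, held the largest changes. CHMP1B (ENSG00000255112) is a protein-coding gene on chromosome 18, 11851396 to 11854449 on GRCh38, inside an intron of GNAL on the same strand. Its level was 71.1, 76.4 and 82.4 FPKM in PD replicates 1 to 3 and 12.9, 13.5 and 14.4 FPKM in DMSO replicates 1 to 3. Every PD sample lay far above every DMSO sample, and spread within either group was small. The means were 76.7 ± 5.67 FPKM in PD and 13.6 ± 0.765 FPKM in DMSO (SD, n = 3 each), a log2 fold change of 2.41 ± 0.09 (SE, adjusted p = 2.33e-05). Recovered reads numbered 3335, 3586 and 3774 in PD samples and 607, 702 and 779 in DMSO samples. Among all 13579 genes tested this was the rise of rank 20, and among the 3355 genes at least as high in DMSO samples it was of rank 3. CHMP1B was the highest of the 35 members in PD and the 13th in DMSO. The antisense gene CHMP1B-AS1, which shares 553 exonic bases with it on the other strand, was listed at 0 in all samples.

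CHMP1A, the paralog of CHMP1B, also encodes an ESCRT-III protein. It was at 50.7, 43.2 and 46.5 FPKM in PD samples and at 30.7, 34.5 and 39.8 FPKM in DMSO samples. The groups did not overlap, but the gap between them, from 39.8 to 43.2 FPKM, was smaller than the spread of either. Its log2 fold change was 0.41 ± 0.12 (adjusted p = 0.037), a call that ended on leaving out PD replicate 1, 2 or 3 (adjusted p = 0.115, 0.0688 and 0.068) and DMSO replicate 1 or 2 (0.0714 and 0.102). The call also ended without PD replicate 3 and DMSO replicate 1 together (0.0771), and under equal totals and quantile scaling (0.12 and 0.0847). IST1, which copolymerises with CHMP1B, was at 36.4, 34.6 and 37.6 FPKM in PD samples and 33.1, 31.2 and 29.6 FPKM in DMSO samples. Its log2 fold change of 0.21 ± 0.08 did not pass (adjusted p = 0.112).

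CHMP2B, which joins the filament late and helps to recruit VPS4, was at 34.9, 39.9 and 57.0 FPKM in PD samples and at 30.4, 20.01 and 19.8 FPKM in DMSO samples. Both libraries that stand apart, PD replicate 3 and DMSO replicate 1, were the highest of their groups. CHMP2B has the lowest transcript GC content of the tested members, 35.4%, and deviations from the group mean correlated with GC content across genes in 5 of the 6 libraries. Spearman's rho was 0.606, 0.021 and -0.524 in PD replicates 1 to 3 and -0.637, 0.462 and 0.535 in DMSO replicates 1 to 3. CHMP2B rose by 0.88 ± 0.22 on the log2 scale with all samples (adjusted p = 0.0255), by 0.87 without both libraries (0.0036) and by 0.93 after correction for GC content (0.00194). CHMP2B did not pass without PD replicate 2 or without DMSO replicate 2 or 3 (adjusted p = 0.0644, 0.0774 and 0.0805). CHMP2A, the close relative of CHMP2B, was at 20.3, 21.4 and 16.9 FPKM in PD samples and 10.8, 15.3 and 15.96 FPKM in DMSO samples. Its log2 fold change of 0.46 ± 0.16 did not pass (adjusted p = 0.0687), though it did without PD replicate 3 and DMSO replicate 1 together (0.0146).

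CHMP4 proteins form the core of the filament. CHMP4B, the most abundant of them, was at 49.0, 43.8 and 56.0 FPKM in PD samples and 42.9, 40.5 and 49.6 FPKM in DMSO samples, and the groups overlapped. Its log2 fold change was 0.16 ± 0.12 (adjusted p = 0.377). CHMP4A was at 1.67, 1.29 and 1.47 FPKM in PD samples and 0.782, 0.972 and 0.775 FPKM in DMSO samples. All PD samples and no DMSO sample reached 1 FPKM, so that it was tested only through the group where it was high and had to differ. The log2 fold change was 0.43 ± 0.13 (adjusted p = 0.0431), on 62, 48 and 53 recovered reads in PD and 29, 40 and 33 in DMSO. CHMP4A passed in 3 of 15 alternatives, and in none that left out a library (adjusted p between 0.0751 and 0.138). It shares 1660 exonic bases with AL096870.2 on the same strand, so reads there could not be assigned with certainty. CHMP4C, which delays the last cut of cell division when chromatin lags, had 0 reads in 5 samples and 3 reads in PD replicate 3, and a count of 0 allows up to 0.105 FPKM in a sample, for counting error alone.

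The remaining ESCRT-III members did not pass the test with all samples. CHMP5, which binds the VPS4 cofactor VTA1, was at 31.5, 31.1 and 36.6 FPKM in PD samples and 29.6, 26.2 and 26.9 FPKM in DMSO samples (log2 fold change 0.25, adjusted p = 0.099), and passed without PD replicate 3 and DMSO replicate 1 together (0.0466). CHMP6, which links ESCRT-II to the CHMP4 filament, was at 1.29, 1.91 and 0.913 FPKM in PD samples and 1.88, 2.10 and 2.54 FPKM in DMSO samples. Those values overlapped, and its log2 fold change of -0.44 ± 0.17 was the lowest of the members (adjusted p = 0.104). CHMP3, a partner of CHMP2A, had a log2 fold change of -0.19, and CHMP7, which starts filaments at the nuclear envelope, of 0.09. CHMP3 shares 760 exonic bases with the read-through gene RNF103-CHMP3 on the same strand.

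Summed over the 12 genes, ESCRT-III transcripts came to 307, 303 and 345 FPKM in PD samples and to 203, 194 and 209 FPKM in DMSO samples. Without CHMP1B the sums were 236, 226 and 263 FPKM in PD samples and 190.2, 180.2 and 195 FPKM in DMSO samples. CHMP1B made up 23.2%, 25.3% and 23.9% of the sum in PD samples, against 6.37%, 6.96% and 6.90% in DMSO samples. It was thus the first of the 12 in PD and the seventh in DMSO by mean share, while CHMP4B, first in DMSO, held 15.5 ± 0.935% in PD and 21.9 ± 1.54% in DMSO (SD, n = 3). These shares do not depend on the scaling between samples, but they were not corrected for transcript GC content. They weigh genes by FPKM, whose gene length is the union of all annotated exons for all 35 members.

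**Figure D3:**
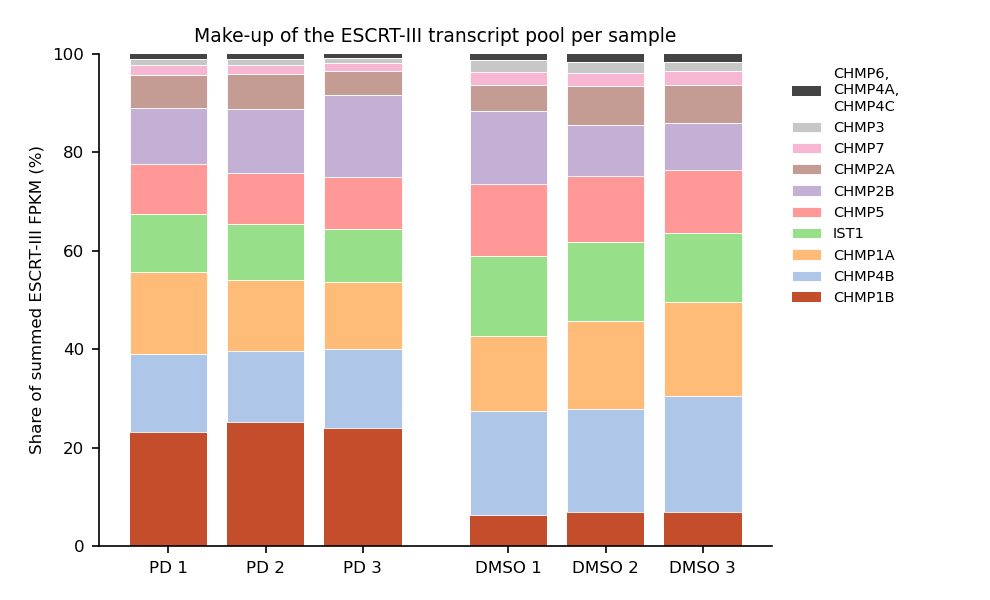
Share of each ESCRT-III gene in the summed FPKM of the 12 genes, in percent, 1 bar per sample with PD left of DMSO. The CHMP1B part (rust red, at the base) spans 23.2% to 25.3% in PD samples and 6.37% to 6.96% in DMSO samples.

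VPS4, which disassembles ESCRT-III filaments, is encoded by VPS4A and VPS4B, of which VPS4B rose. VPS4B (chromosome 18, 63389190 to 63422483) was at 32.7, 32.3 and 39.3 FPKM in PD samples and at 22.7, 19.1 and 20.3 FPKM in DMSO samples. All PD samples lay above all DMSO samples by a wide margin. Its log2 fold change was 0.72 ± 0.11 (adjusted p = 0.00423). VPS4A was at 13.4, 10.7 and 10.5 FPKM in PD samples and 10.4, 11.5 and 11.9 FPKM in DMSO samples, so that the groups overlapped (0.03 ± 0.11, adjusted p = 0.874). VPS4A shares 1191 exonic bases with AC026464.4 on its own strand and 1245 with COG8 on the other. VTA1, the cofactor that stimulates VPS4, averaged 8.82 ± 1.58 FPKM in PD and 9.37 ± 1.59 FPKM in DMSO (adjusted p = 0.736).

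Among recruiters, PDCD6IP was the highest member in DMSO. It was at 59.7, 65.4 and 72.6 FPKM in PD samples and at 56.1, 48.1 and 47.1 FPKM in DMSO samples. The groups were separate by a small margin, and PD replicate 3 and DMSO replicate 1 were again the highest of their groups. The log2 fold change was 0.38 ± 0.11 (adjusted p = 0.0414), and 0.39 without both of those libraries (adjusted p = 0.0187). It did not pass without PD replicate 1, 2 or 3 or DMSO replicate 2 or 3 (adjusted p = 0.0513, 0.115, 0.0896, 0.129 and 0.133), nor under equal totals or quantile scaling (0.0645 and 0.084). PDCD6, the calcium sensor that binds PDCD6IP, averaged 6.81 ± 0.202 FPKM in PD and 5.62 ± 0.235 FPKM in DMSO without passing (0.24 ± 0.08, adjusted p = 0.065). It shares 244 exonic bases with AHRR on the same strand. PTPN23, a relative of PDCD6IP that sorts receptors, averaged 21.7 ± 1.09 FPKM in PD and 19.5 ± 1.83 FPKM in DMSO (adjusted p = 0.284).

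ESCRT-I is a complex of TSG101, VPS28, a VPS37 protein and an MVB12 or UBAP1 protein, and 2 of its 4 VPS37 genes rose. VPS37B (chromosome 12, 122865328 to 122896444) was at 6.45, 6.10 and 5.37 FPKM in PD samples and at 3.13, 3.62 and 3.64 FPKM in DMSO samples. The groups were well apart, and VPS37B rose by 0.64 ± 0.10 on the log2 scale (adjusted p = 0.00476). It shares 1658 exonic bases with AC027290.2 on the same strand, a locus at 0.562 FPKM in PD and 0.278 FPKM in DMSO. VPS37C was at 12.8, 11.3 and 11.6 FPKM in PD samples and at 8.98, 7.996 and 8.91 FPKM in DMSO samples, with no overlap. Its log2 fold change was 0.42 ± 0.09 (adjusted p = 0.0148), and it did not pass without PD replicate 1 or DMSO replicate 2 (adjusted p = 0.0523 and 0.0652). VPS37A, the most abundant VPS37 gene, averaged 12.5 ± 2.19 FPKM in PD and 11.5 ± 1.82 FPKM in DMSO (adjusted p = 0.599). VPS37D, the lowest, averaged 1.80 ± 0.188 FPKM in PD and 2.66 ± 0.745 FPKM in DMSO (-0.37 ± 0.16, adjusted p = 0.123).

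MVB12B was at 2.89, 2.39 and 2.28 FPKM in PD samples and at 3.11, 3.5998 and 4.35 FPKM in DMSO samples. The groups did not overlap, and the log2 fold change of -0.41 ± 0.13 just missed the threshold (adjusted p = 0.0541). MVB12B passed in 7 of 15 alternatives, among them the fits without PD replicate 3 and DMSO replicate 1 together (0.0474) and without DMSO replicate 1 (0.0346). Its paralog MVB12A had a log2 fold change of -0.07. TSG101, which binds ubiquitin and the PTAP motifs of cargo adaptors, was at 15.4, 15.4 and 20.1 FPKM in PD samples and 15.6, 14.6 and 15.1 FPKM in DMSO samples, so that PD replicate 3 alone stood out (adjusted p = 0.377). For VPS28 the log2 fold change was 0.07 (adjusted p = 0.646) and for UBAP1 it was 0.14 (0.259).

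No gene of ESCRT-0, ESCRT-II or the deubiquitinases passed the test. In ESCRT-0, STAM was at 5.72, 5.98 and 6.68 FPKM in PD samples and at 6.72, 7.05 and 6.49 FPKM in DMSO samples, with overlap. HGS, which binds endosomal lipid and ubiquitin, and its partners STAM and STAM2 had log2 fold changes of 0.09, -0.12 and 0.16, and 0 of the 3 passed the test (0 at an unadjusted p under 0.05, and 0 with voom). STAM2 passed after correction for GC content (0.22, adjusted p = 0.0444). All 3 ESCRT-II genes were lower in PD by their means, and 0 passed (1 at an unadjusted p under 0.05, and 0 with voom). VPS25, which contacts CHMP6, was at 12.6, 12.8 and 12.9 FPKM in PD samples and at 14.1, 15.3 and 16.4 FPKM in DMSO samples. Those groups did not overlap (-0.24 ± 0.09, adjusted p = 0.0785), and VPS25 passed without DMSO replicate 1 (0.0455) and without that sample and PD replicate 3 together (0.0305). SNF8 and VPS36, the other subunits, had log2 fold changes of -0.10 and -0.13. Of the deubiquitinases that strip cargo before it is enclosed, STAMBP was at 11.1, 11.3 and 12.3 FPKM in PD samples and at 12.3, 10.96 and 10.9 FPKM in DMSO samples. USP8 averaged 3.25 ± 0.375 FPKM in PD and 3.73 ± 0.531 FPKM in DMSO (adjusted p = 0.385).

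Ratios between paralogous genes were compared within each sample, where scaling between samples has no part. Transcript GC content differs within pairs, at 41.5% for CHMP1B and 61.5% for CHMP1A, and at 39.2% for VPS4B and 54.0% for VPS4A. Its part in the ratios was not tested, and no ratio was computed without both libraries that stand apart. The ratio of CHMP1B to CHMP1A in FPKM was 1.40, 1.77 and 1.77 in PD samples and 0.422, 0.391 and 0.363 in DMSO samples, so that the paralog with more transcript per length was CHMP1B in PD and CHMP1A in DMSO. VPS4B stood at 2.43, 3.01 and 3.76 times VPS4A in PD samples and at 2.18, 1.67 and 1.71 times in DMSO samples. The highest value of each group was that of PD replicate 3 and of DMSO replicate 1. MVB12B stood at 0.310, 0.361 and 0.298 times MVB12A in PD samples and at 0.422, 0.439 and 0.473 times in DMSO samples. Those groups and those of CHMP4A to CHMP4B and VPS37C to VPS37B did not overlap, 5 of the 8 ratios tested. The share of such ratios among other gene pairs was not computed. CHMP4A is near the filter, and its log2 ratio to CHMP4B differed by 0.65, or by 0.27 with a pseudocount of 1. CHMP2B to CHMP2A averaged 2.32 ± 0.922 in PD and 1.79 ± 0.887 in DMSO (SD, n = 3), and overlapped, as did STAM2 to STAM and VPS37A to VPS37B. With 3 samples against 3 the exact two-sided permutation test cannot go below p = 0.1, which those 5 ratios reached (0.16 adjusted over the 8). The ratio of CHMP4C to CHMP4B was left out of the test, since CHMP4C was at 0 in 5 samples.

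**Figure D4:**
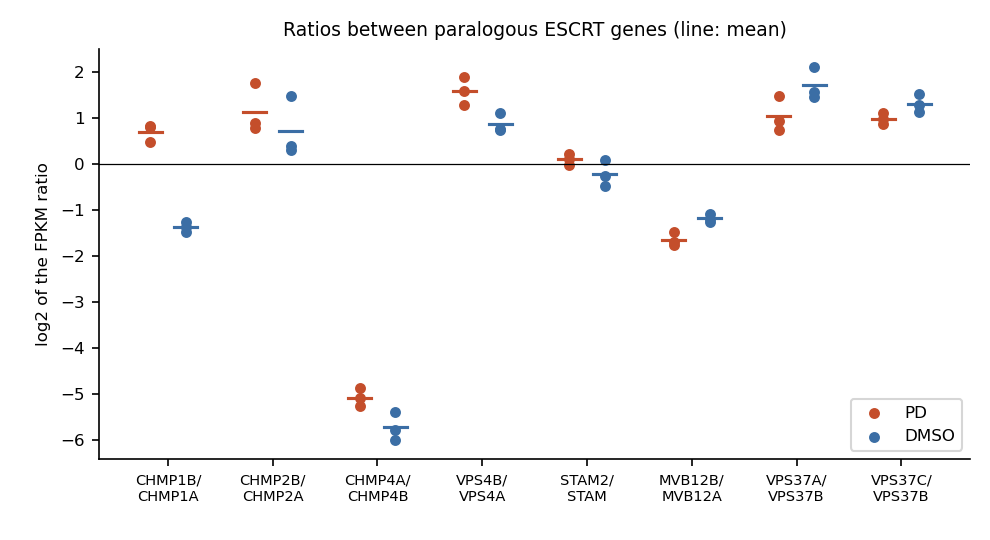
Log2 of the FPKM ratio between paralogous ESCRT genes in each PD sample (rust red, left in each pair) and each DMSO sample (blue), with lines at the group means. The CHMP1B/CHMP1A ratio is above 0 in all PD samples, at 1.40 to 1.77 before the logarithm, and below 0 in all DMSO samples, at 0.363 to 0.422.

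Genes that work next to the ESCRT proteins were read from 4 further lists. These lists were chosen with earlier results of these data known, so their shares are description only. Of 20 tested ESCRT recruiters and partners 2 rose and 1 fell, or 10% and 5%, beside 14.3% and 12.7% of all genes tested. Their median log2 fold change was -0.03. TOLLIP, an endosomal adaptor for ubiquitinated cargo, averaged 21.8 ± 3.14 FPKM in PD and 12.0 ± 0.36 FPKM in DMSO (0.81, adjusted p = 0.00283). PEF1, a partner of PDCD6, rose by 0.38 on the log2 scale (adjusted p = 0.0351) but not without PD replicate 1, 2 or 3 or DMSO replicate 2 or 3 (0.094, 0.0707, 0.0781, 0.117 and 0.0518), nor without PD replicate 3 and DMSO replicate 1 together (0.0659). CEP55, which brings PDCD6IP and TSG101 to the midbody of dividing cells, averaged 9.40 ± 1.54 FPKM in PD and 15.5 ± 2.73 FPKM in DMSO (-0.67, adjusted p = 0.0175). It did not pass without PD replicate 1 or 2 (0.0579 and 0.066). SPAST, the microtubule-severing ATPase that CHMP1B recruits, averaged 7.10 ± 0.869 FPKM in PD and 9.09 ± 1.59 FPKM in DMSO and did not pass (adjusted p = 0.134); it was singled out once its value was known.

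Of 14 tested genes of late cytokinesis and the midbody, where ESCRT-III makes the last cut, 10 fell (71.4%) and 0 rose. At an unadjusted p under 0.05, 0 were higher, and 0 rose with voom. Across all genes tested 12.7% fell and 14.3% rose, but the lists were chosen with earlier results of these data known. CEP55 counts in this list too. The list median was -0.67, against 0.13 for the ESCRT members. The mitotic kinesins KIF20A and KIF14 and the kinase PLK1 were among those that fell, with changes of -1.15, -1.01 and -1.14 on the log2 scale (adjusted p = 0.000298, 0.00629 and 0.00168). Among 13 tested cargo and exosome genes 7 rose (53.8%) and 3 fell (23.1%), with a median of 0.47. TFRC, the endocytosed transferrin receptor, averaged 62.1 ± 5.05 FPKM in PD and 7.65 ± 0.208 FPKM in DMSO (2.87, adjusted p = 1.24e-05). CD9, a tetraspanin of exosomes, rose by 0.85 (adjusted p = 0.000848). Of 25 genes of endosome tethering and retromer 9 rose (36%) and 0 fell, with a median of 0.16. At an unadjusted p under 0.05, 1 of the 25 was lower, and 1 fell with voom. No VPS26, VPS29, VPS35 or SNX gene, the retromer part of the list, was among those that rose. RAB7A, the GTPase of late endosomes, averaged 339 ± 35.4 FPKM in PD and 170.2 ± 6.29 FPKM in DMSO (0.99, adjusted p = 0.00102). RAB5B, a GTPase of early endosomes, and VPS18, a core subunit of the tethers that fuse endosomes with lysosomes, rose by 0.99 and 0.94 (adjusted p = 0.000686 and 0.000962).

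**Figure D5:**
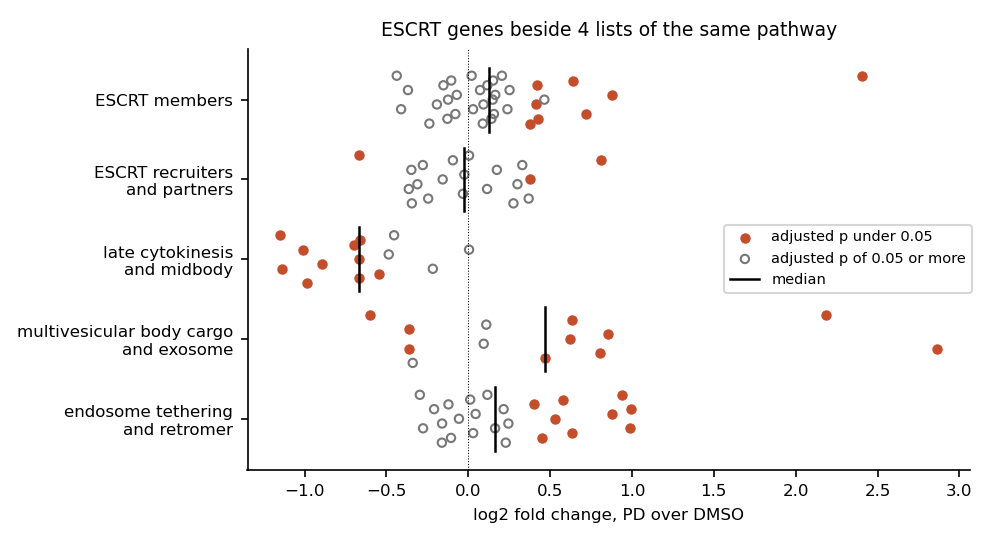
Log2 fold change, PD over DMSO, of each tested gene of the ESCRT members and of 4 lists of the same pathway, 1 point per gene, filled where adjusted p is under 0.05, with a bar at the list median. The medians lie at 0.13 for ESCRT members and at -0.67 for late cytokinesis and midbody genes. Members and lists were chosen with earlier results of these data known.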

How the data were processed

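The authors deposited FPKM, scaled by gene length and library size, for 6 samples, in a table whose header gives gene length and coordinates. Per the labels' protocols, a stranded mRNA kit and paired reads were used. No aligner or counting program, nor whether counting used strand, is recorded in the labels or the file. Genome builds named in the submitters' processing notes are GRCm38 and mm10, but gene identifiers and coordinates are human, on GRCh38. Each column was matched to a sample by its prefix and the last number of the title. Among gene names, 27 that a spreadsheet had turned into dates were replaced through identifiers, none of them members. FPKM times gene length was a whole multiple of a step per sample (100% of values above 0, tolerance 0.01), which gave whole reads. The implied denominators were 0.947 to 1.00 times the gene total in PD and 1.03 to 1.10 times in DMSO.

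Values were taken as log2(FPKM + 1), which understates changes of low genes, for 13579 genes with at least 1 FPKM in at least 3 samples. The test of PD against DMSO used limma 3.58.1 (R 4.3.3; trended variance, no covariate, two-sided), with Benjamini-Hochberg adjustment over all genes tested. The fit was checked on simulated reads, which held neither the GC trend nor the libraries that stand apart, so that check does not cover them. Alternatives were a pseudocount of 0.1, no filter or a mean of at least 5 FPKM, equal totals or quantile scaling, voom on recovered reads, array weights, the replicate block and the samples used, and, chosen after seeing the data, a loess correction (span 0.3) for transcript GC content. Members and lists were chosen with earlier results of these data known. All members are named, with every sample for those that rose and for the highest of each complex, and up to 3 genes per further list that passed with the largest change. A gene that this rule would name is not reported here. Exons come from GENCODE 29 and promoters from RefSeq on GRCh38.p14. Protein sequences were not used here. Figures were drawn with matplotlib 3.10.9.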

Additional observations from a re-analysis of the deposited data

How the results depend on the processing

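Depth limits CHMP4A, CHMP6, CHMP4C and VPS37D, on at most 101 reads per sample. The labels state no pairing, so their replicate numbers were not used in the main fit. Deviations of same-numbered samples correlated at -0.388, 0.168 and -0.163. Those values cannot show whether cultures were paired, since deviations also followed transcript GC content. With the replicate block 3 ESCRT members rose and 0 fell, 1 partner gene rose and 0 fell, and 1 cargo gene fell; not every sample correlated best with its own number.

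Of the members, 8 rose and 0 fell as reported. The number that rose was 4 with no filter, 5 with equal totals and 5 under quantile scaling, and 3 to 6 when a replicate was left out. The number that fell was 3 with equal totals, 1 under quantile scaling, 1 with voom, 3 with array weights, 2 after GC correction, 2 without DMSO replicate 1 and PD replicate 3, and 0 to 2 when a replicate was left out. MVB12B was among those that fell in each of these fits that had any. Array weights and GC correction gave 12 that rose, all 8 among them. The median over all genes moved to -0.10 with equal totals. CHMP1B ranged from 2.29 to 2.49, VPS4B from 0.60 to 0.78 and VPS37B from 0.54 to 0.78 over all alternatives, and all 3 passed throughout. Without genes under a mean of 5 FPKM, VPS37B and CHMP4A were not tested.

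Some members that did not pass changed sign under an alternative. With equal totals HGS was -0.0085, VPS28 -0.043, CHMP7 -0.016, VPS4A -0.084 and STAMBP -0.093. With array weights VPS4A was -0.038. Without DMSO replicate 1 and PD replicate 3 SNF8 was 0.035, and it kept its sign, from -0.18 to -0.008, when a single replicate was left out. When a replicate was left out, VPS28 ranged from -0.012 to 0.15, VPS37A from -0.010 to 0.23, MVB12A from -0.19 to 0.033, VPS4A from -0.076 to 0.090, VTA1 from -0.20 to 0.043 and STAMBP from -0.019 to 0.072. The causes were not tested.

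Among ESCRT recruiters and partners, 2 rose and 1 fell as reported. The number that rose was 1 with no filter and 1 with equal totals, 5 with array weights and 5 after GC correction, and 1 to 3 when a replicate was left out. The number that fell was 0 with no filter, 6 with equal totals, 2 under quantile scaling, 2 with voom, 5 with array weights, 6 after GC correction, 3 without DMSO replicate 1 and PD replicate 3, and 0 to 3 when a replicate was left out. Of the cargo genes 3 fell as reported, 1 with no filter and 1 to 3 when a replicate was left out. Of the tethering and retromer genes 0 fell as reported, 2 with equal totals, 1 with voom, 2 with array weights and 1 after GC correction. The log2 ratio of CHMP4A to CHMP4B differed by 0.65 between the groups, and by 0.27 with a pseudocount of 1.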

Other observations

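Around CHMP1B, 16 other genes of the table lie within 200 kb, of which 3 passed the filter on low values. GNAL, a G protein subunit gene whose intron holds CHMP1B, averaged 5.39 FPKM in PD and 4.62 FPKM in DMSO (log2 fold change 0.18, adjusted p = 0.17). MPPE1, a phosphodiesterase gene that overlaps the end of GNAL, rose by 0.39 (adjusted p = 0.0406), at a low level of 1.91 FPKM in PD and 1.22 FPKM in DMSO. IMPA2, an inositol monophosphatase gene 126576 bases beyond CHMP1B, was at 1.94, 2.20 and 2.39 FPKM in PD samples and 0.868, 0.904 and 0.933 FPKM in DMSO samples. It reached the filter through its PD samples alone, and its difference is given as a description. These genes were chosen by position, and the others within the window were below the filter. The pseudogene CHMP1B2P on the X chromosome was listed at 0 in every sample.

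CHMP4BP1, a processed pseudogene on chromosome 14 derived from CHMP4B, was listed at 1.55, 1.33 and 1.70 FPKM in PD samples and at 0, 0.499 and 0.289 FPKM in DMSO samples, while CHMP4B itself averaged 49.6 FPKM in PD and 44.3 FPKM in DMSO and did not pass the test. The pseudogene too reached the filter through its PD samples alone. How the authors' counting placed reads shared by both is not recorded, and its values are uncertain. The gene was named after its values were seen.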
